A study of Mus musculus with 12 samples.

Results

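Toll-like receptors are membrane proteins by which cells of the innate immune system, and some epithelial cells, recognise microbial products and molecules released from damaged tissue. Tlr1, Tlr2, Tlr4 and Tlr6 act at the cell surface and bind mainly bacterial lipids and lipoproteins, whereas Tlr3, Tlr7, Tlr8, Tlr9 and Tlr13 act in endosomes and bind nucleic acids. Myd88 is the adaptor that joins these receptors, with the exception of Tlr3, and the receptors of the interleukin-1 family to the kinases that activate NF-κB. In the kidney these receptors are best known from resident macrophages and dendritic cells, and some are also made by tubular epithelium.

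Described here are these 9 receptor genes and *Myd88*, chosen by gene symbol from a count table of 35275 genes and making up 10 members. The table holds RNA-seq read counts of kidneys from 12 mice on the C57BL/6J strain background, all 6 months old, in 3 groups of 4. WT mice were wild type. RC/RC mice were homozygous for a knock-in missense allele of *Pkd1*, the gene most often mutated in autosomal dominant polycystic kidney disease, which leaves some polycystin-1 function and gives a slowly progressing cystic kidney. RC/RC:*Casp1*KO mice carried the same *Pkd1* allele and, in addition, a homozygous TALEN-made deletion in *Casp1*, the gene of the inflammasome protease caspase-1. Both alleles are carried by every cell of the animal, so that no cell type is singled out by the genotype. Each group held 2 females and 2 males per the labels. The columns of the count table name the genotype of a mouse but neither its sex nor its replicate number. The mice are therefore numbered 1 to 4 within a group in column order, and sex entered no comparison.

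The depth was 20556335 to 22656309 counted reads per mouse in WT, 18019819 to 24284831 in RC/RC and 18738755 to 24869454 in RC/RC:*Casp1*KO. Levels are given as CPM, a gene's reads scaled to a common library size after edgeR's TMM adjustment. A gene was called upregulated or downregulated when its p-value by edgeR (quasi-likelihood), adjusted by Benjamini-Hochberg over all genes tested, was under 0.05. Kidney identity was checked by segment markers. The summed proximal tubule markers, led by *Slc34a1*, a phosphate transporter, lay between 3309 and 12163 CPM in all mice. Those of the loop, distal tubule and collecting duct, led by *Umod*, the gene of uromodulin, lay between 3972 and 8193 CPM.

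*Casp1* itself was at 1.29, 1.30, 1.41 and 2.06 CPM in the WT mice, at 2.62, 3.37, 3.84 and 4.26 CPM in the RC/RC mice and at 0.385, 0.664, 0.665 and 1.05 CPM in the RC/RC:*Casp1*KO mice. All RC/RC mice were above all WT mice, and all RC/RC:*Casp1*KO mice were below both. The count covers the whole gene, of which the deletion removes a small stretch, so that it follows the RNA level and does not show the deletion itself. *Casp1* was 2.31-fold higher in RC/RC than in WT (adjusted p = 0.0142) and 5.09-fold lower in RC/RC:*Casp1*KO than in RC/RC (adjusted p = 0.00514; 6.17-fold lower without RC/RC:*Casp1*KO mouse 4, described next, adjusted p = 0.00725). The *Pkd1* allele is an amino acid change, so that the *Pkd1* level, 40.4 to 67.1 CPM in WT, 46.7 to 67.0 in RC/RC and 56.3 to 86.1 CPM in RC/RC:*Casp1*KO, does not check it.

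RC/RC:*Casp1*KO mouse 4 stood apart from the other mice of its group. *Ptprc*, the gene of the leukocyte antigen CD45, was at 58.3 CPM in this mouse and at 16.5, 23.8 and 24.8 CPM in the other RC/RC:*Casp1*KO mice. For all 10 members this mouse had the highest level of its group. Values of the RC/RC:*Casp1*KO group are therefore also given without this mouse for the members and, relative to RC/RC, for the pathway lists and the macrophage and fibroblast markers. This was chosen after the data had been seen, and since the mouse was the highest of its group for every member, leaving it out favours lower values.

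RC/RC kidneys had higher RNA levels of 3 of the 9 receptors and of *Myd88* than WT kidneys. *Tlr2*, *Tlr4*, *Tlr13* and *Myd88* were upregulated, 4 of the 10 members, beside 9.76% of all 15243 genes tested that were called upregulated and 12.9% that were called in either direction. All 10 members had a positive log2 fold change, with a median of 0.96, beside a median of −0.02 over all genes tested. The filter on low counts asked for about 10 reads in at least 4 mice. *Tlr6* and *Tlr8* reached that level in 4 RC/RC mice but in 1 and 2 WT mice, so that the filter favoured their direction, and the count and median are a description. Over the 8 members that met it in both groups, 4 were upregulated and the median was 0.94. The other 6 members did not pass the threshold.

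*Tlr2* (ENSMUSG00000027995, minus strand, chr3:83836273-83841767 in mm10) encodes the lipoprotein receptor that pairs with Tlr1 or Tlr6. It was at 2.80, 3.37, 3.49 and 3.88 CPM in WT and at 7.09, 9.19, 9.99 and 10.5 CPM in RC/RC. Every RC/RC mouse was above every WT mouse, as were 12.7% of all genes tested. The increase was 2.70-fold (log2 fold change 1.43 ± 0.18, standard error, 4 against 4 mice, adjusted p = 0.00167), the largest relative to its standard error among the 10 members, and *Tlr2* passed the threshold in each of the 8 fits that left out 1 mouse.

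*Tlr4* (ENSMUSG00000039005, plus strand, chr4:66827584-66930284) encodes the receptor of lipopolysaccharide. WT mice had 3.56, 4.26, 4.98 and 5.39 CPM and RC/RC mice 7.39, 7.61, 9.58 and 9.83 CPM, again with no overlap between the groups. The increase was 1.88-fold (log2 fold change 0.91 ± 0.19, adjusted p = 0.0133), and it passed the threshold in 8 of 8 fits that left out 1 mouse.

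*Tlr13* (ENSMUSG00000033777, plus strand, chrX:106143204-106160493) encodes a rodent endosomal receptor of bacterial ribosomal RNA. It was at 1.22, 1.50, 1.82 and 2.92 CPM in WT and at 2.75, 4.30, 4.79 and 4.85 CPM in RC/RC, and the lowest RC/RC mouse fell just under the highest WT mouse. The increase was 2.23-fold (log2 fold change 1.16 ± 0.31, adjusted p = 0.0401). This call rested on few reads, 26 to 113 per mouse in these groups, and it was lost without RC/RC mouse 1, 2 or 4 or WT mouse 2, 3 or 4, with adjusted p-values of 0.0690 to 0.107 and log2 fold changes of 1.00 to 1.14.

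*Myd88* (ENSMUSG00000032508, minus strand, chr9:119335934-119341411) was at 10.6, 12.3, 13.3 and 14.8 CPM in WT and at 17.9, 18.9, 22.1 and 23.9 CPM in RC/RC, with no overlap. The increase was 1.61-fold (log2 fold change 0.69 ± 0.14, adjusted p = 0.0139) and passed the threshold in 8 of 8 fits that left out 1 mouse. The gene lies within the deposited span of *Slc22a14*, which had 12 to 77 reads per mouse. The 1736 bases at the start of *Myd88*, chr9:119339676-119341411, are also shared with *Acaa1a*, a peroxisomal thiolase gene on the opposite strand that had 3105 to 4702 reads per mouse against 213 to 487 for *Myd88*. The strand setting of the counting is not given in the sources used here, so that reads from the shared bases cannot be assigned to either gene with certainty. The log2 fold change of *Acaa1a* in the same comparison was 0.12 ± 0.12 (adjusted p = 0.536).

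Promoters are shown for 3 of the 4 genes called upregulated. The sequences are from RefSeq on GRCm38.p6, the assembly that mm10 denotes, and are written 5′ to 3′ on the strand of the gene. RefSeq promoters were found for 8 of the 10 members, and none was found for *Tlr4* or *Tlr7*. The 250 bases before the start site were searched on both strands for the PU.1 site GAGGAAG, the NF-κB site (GGG, any 2 bases, TTTCC), the interferon response element (GAAA, any 2 bases, GAAA) and the AP-1 site TGANTCA. These letters occur in 10.6%, 1.41%, 2.98% and 6.75% of the 32851 RefSeq promoters of the same length. Capitals mark the matches. The stretches printed for *Tlr2* and *Tlr13* end where the deposited gene span begins, and for *Myd88* only 30 bases around the match are printed, since the RefSeq promoter lies inside the deposited span.
Tlr2, chr3:83841768-83841858, minus strand: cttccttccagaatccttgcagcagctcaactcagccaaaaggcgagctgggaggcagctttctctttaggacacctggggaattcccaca
Tlr13, chrX:106143025-106143203, plus strand: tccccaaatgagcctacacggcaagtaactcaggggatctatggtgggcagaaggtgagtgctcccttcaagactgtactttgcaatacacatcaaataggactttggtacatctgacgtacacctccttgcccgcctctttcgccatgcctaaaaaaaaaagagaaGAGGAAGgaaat
Myd88, chr9:119340039-119340068, minus strand: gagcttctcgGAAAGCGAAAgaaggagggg
*Tlr13* held a PU.1 match 83 bases before its RefSeq start site, and *Myd88* an interferon response element match 40 bases before its own. The *Tlr2* window held no match to these letters. Other forms of these sites were not searched, so that a window without a match may still hold a site. Among members that were not called, *Tlr1* and *Tlr9* held a PU.1 match, *Tlr9* also an AP-1 match, *Tlr3* an NF-κB match and *Tlr6* a pair of overlapping interferon response element matches. A match describes the letters only.

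**Figure D1:**
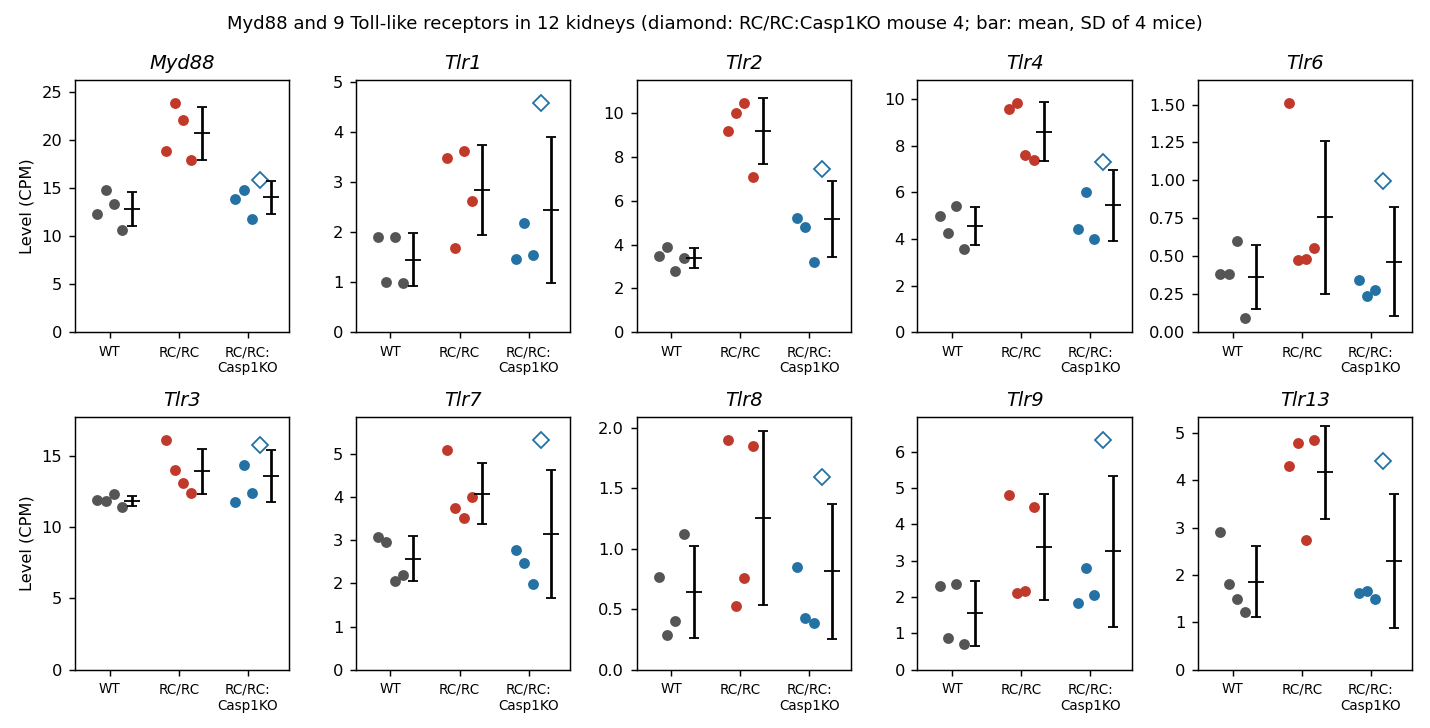
Level in CPM (vertical axis, from 0) of each of the 10 members in each mouse, by group; the black mark and bar give the mean and SD of 4 mice, and the open diamond is RC/RC:*Casp1*KO mouse 4. RC/RC and WT do not overlap for *Myd88*, *Tlr2*, *Tlr3*, *Tlr4* and *Tlr7*, and the diamond is the highest point of its group in all 10 panels.

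Among the cell surface receptors, *Tlr1* and *Tlr6*, the partners of Tlr2, were not called. *Tlr1* (ENSMUSG00000044827, chr5:64924811-64932761) was at 0.984, 1.01, 1.90 and 1.91 CPM in WT and at 1.68, 2.62, 3.49 and 3.61 CPM in RC/RC. The groups overlapped at their edges (log2 fold change 0.97 ± 0.34, adjusted p = 0.0968). *Tlr6* (ENSMUSG00000051498, chr5:64953106-64960048) was the least abundant member, with 2 to 12 reads per mouse in WT and 9 to 39 in RC/RC, and its log2 fold change of 1.06 had a standard error of 0.57 (adjusted p = 0.243). No stretch of 100 bases or more with at least 95% identity was found between the *Tlr1* or *Tlr6* transcript and any other gene in GENCODE.

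Of the endosomal receptors, *Tlr7* (ENSMUSG00000044583, chrX:167304929-167330558), a sensor of viral RNA, was at 2.05, 2.20, 2.97 and 3.06 CPM in WT and at 3.51, 3.73, 3.99 and 5.08 CPM in RC/RC. The groups did not overlap, yet the difference did not pass the threshold (log2 fold change 0.66 ± 0.22, adjusted p = 0.0821). Bases 4153 to 4798 of the longest *Tlr7* transcript in GENCODE, of 5064 bases, hold a repeated stretch. It has matches of up to 645 bases in 41 other genes. The deposited gene length is 3897 bases, so that it is not known whether this stretch was counted. If it was, reads from it may have been shared or dropped in the authors' alignment. *Tlr8* (ENSMUSG00000040522, chrX:167242696-167264329), its neighbour on the X chromosome, had 6 to 49 reads per mouse in WT and RC/RC, and its log2 fold change was 0.96 ± 0.54 (adjusted p = 0.267).

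*Tlr9* (ENSMUSG00000045322, chr9:106222598-106226883), the receptor of unmethylated CpG DNA, was at 0.703, 0.862, 2.30 and 2.35 CPM in WT and at 2.10, 2.16, 4.47 and 4.81 CPM in RC/RC. Within each group a pair of mice was low and a pair high, and the log2 fold change of 1.12 ± 0.47 did not pass (adjusted p = 0.147). *Tlr3* (ENSMUSG00000031639, chr8:45395665-45410608), which binds viral RNA duplexes and signals without Myd88, was at 11.4, 11.8, 11.9 and 12.3 CPM in WT mice and at 12.4, 13.1, 14.0 and 16.1 CPM in RC/RC mice, which do not overlap. The log2 fold change of *Tlr3*, 0.22 ± 0.12, was the smallest of the 10 members and was not called (adjusted p = 0.25).

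**Figure D2:**
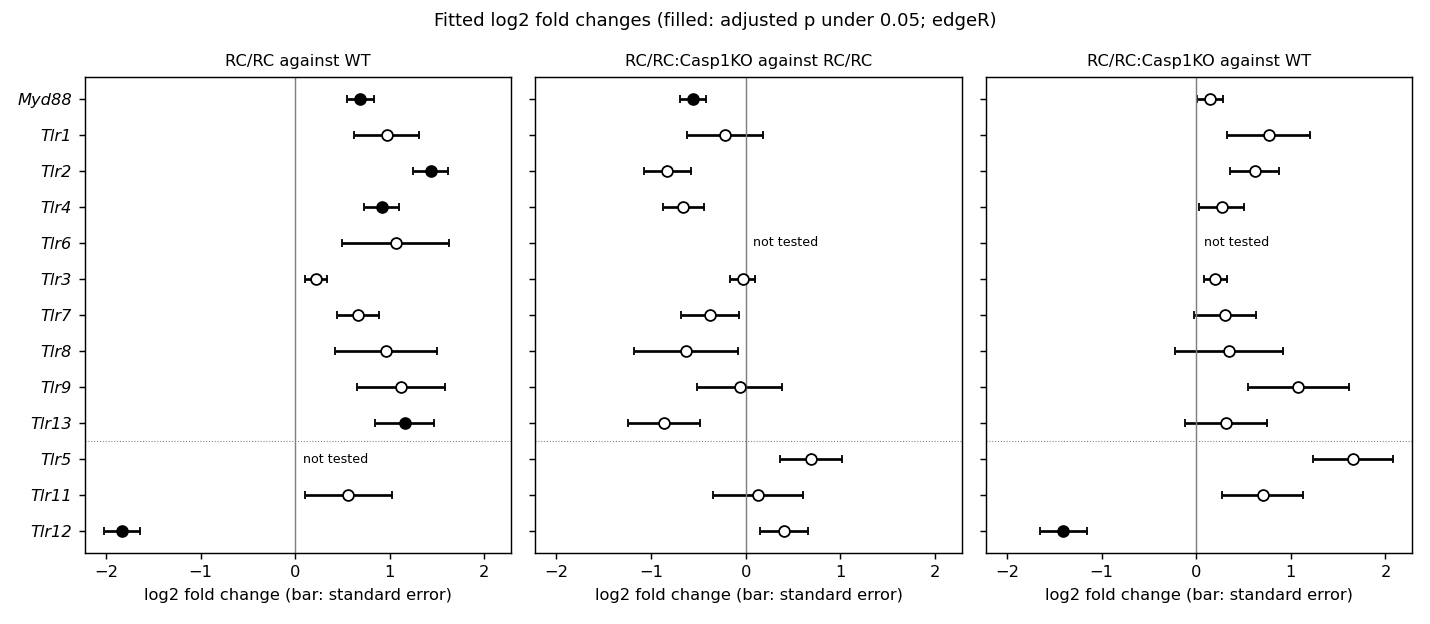
Log2 fold change (horizontal axis) with its standard error for the 10 members and, under the dotted line, the other 3 Toll-like receptor genes, in the 3 comparisons of 4 against 4 mice; filled points passed an adjusted p of 0.05. All 10 members lie right of 0 in RC/RC against WT, and *Tlr12* lies left of it at −1.83.

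The mouse genome has 3 further Toll-like receptor genes, of which 1, *Tlr12*, was called, in the opposite direction to the members. *Tlr12* (ENSMUSG00000062545, minus strand, chr4:128615446-128618619), a receptor of protozoan profilin, was at 20.7, 26.4, 31.0 and 32.4 CPM in WT and at 5.63, 8.31, 8.53 and 8.85 CPM in RC/RC. Every RC/RC mouse was below every WT mouse, as for 6.58% of all genes, and *Tlr12* was downregulated 3.55-fold (log2 fold change −1.83 ± 0.19, adjusted p = 0.000603), with a pass in 8 of 8 fits that left out 1 mouse. *Tlr11*, another profilin receptor, had a log2 fold change of 0.56 ± 0.46 (adjusted p = 0.442). *Tlr5*, the flagellin receptor, had 2 to 8 reads per mouse in WT and 6 to 17 in RC/RC and was too low to be tested. The 250 bases before the *Tlr12* start site, shown for comparison with the genes that rose, held no match to the letters searched.
Tlr12, chr4:128618620-128618869, minus strand: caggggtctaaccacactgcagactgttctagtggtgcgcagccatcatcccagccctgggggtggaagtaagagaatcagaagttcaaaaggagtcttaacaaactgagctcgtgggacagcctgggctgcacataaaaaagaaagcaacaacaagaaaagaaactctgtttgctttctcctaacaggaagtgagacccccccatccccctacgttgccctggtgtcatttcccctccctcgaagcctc

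To compare genes with each other, counts were divided by gene length and library total (FPKM). Per length, *Tlr12* was the most abundant receptor in WT kidneys at 8.27 ± 1.60 FPKM (SD, n = 4), above *Myd88* at 4.94 ± 0.65 and *Tlr3* at 2.60 ± 0.12, and the ranges of these genes did not overlap. *Tlr2* at 1.07 ± 0.12 and *Tlr4* at 1.06 ± 0.21 FPKM followed and could not be ordered by their ranges. From *Tlr7* at 0.626 ± 0.122 down to *Tlr5* at 0.0690 ± 0.0392 FPKM each gene's range overlapped that of the next.

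In RC/RC the order was *Myd88* at 8.52 ± 1.35 FPKM, *Tlr3* at 3.26 ± 0.55, *Tlr2* at 3.09 ± 0.56, *Tlr12* at 2.48 ± 0.43 and *Tlr4* at 2.14 ± 0.44. Only the steps from *Myd88* to *Tlr3* and from *Tlr4* to *Tlr1* separated neighbours without overlap. *Tlr1*, *Tlr7*, *Tlr13* and *Tlr9* lay together between 0.985 and 1.08 FPKM. In RC/RC:*Casp1*KO the leading genes were *Myd88* at 6.00 ± 1.02, *Tlr12* at 3.40 ± 1.03 and *Tlr3* at 3.29 ± 0.58 FPKM, of which *Tlr12* and *Tlr3* overlapped.

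**Figure D3:**
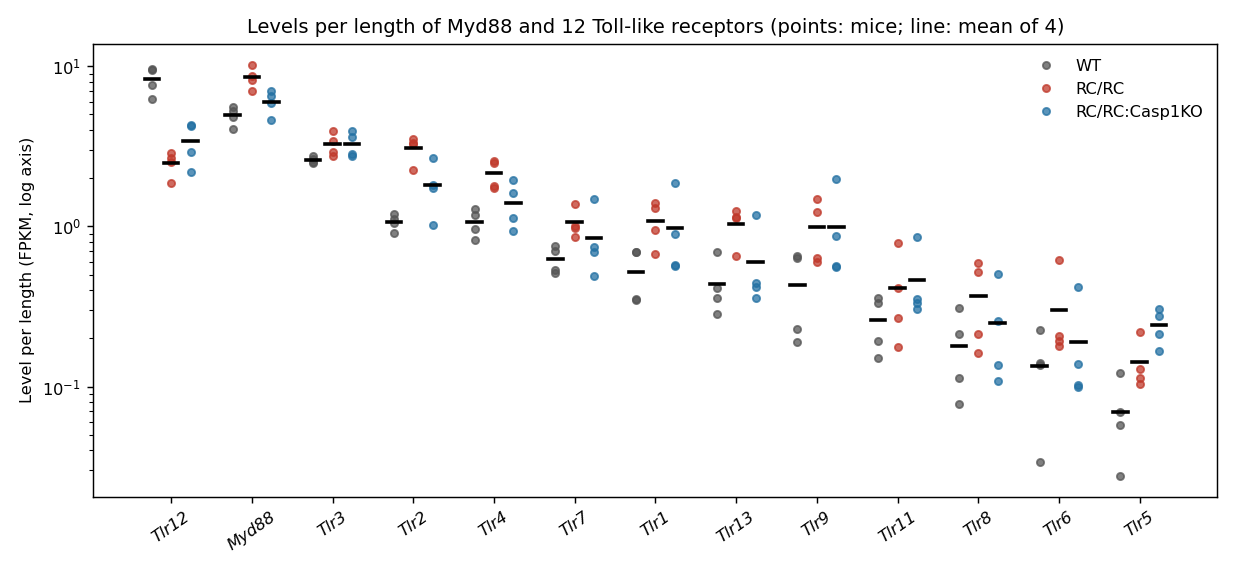
Level per length in FPKM (log axis) of *Myd88* and 12 Toll-like receptor genes, in order of their WT mean; points are mice and black lines the mean of 4. *Tlr12* leads in WT at 8.27 FPKM and *Myd88* in RC/RC at 8.52 FPKM.

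In RC/RC:*Casp1*KO against RC/RC kidneys *Myd88* was called lower, a call lost in 5 of 8 fits that left out 1 mouse. *Tlr2*, *Tlr4* and *Tlr13* had lower values that did not pass the threshold with all 8 mice. Of the 9 members tested 1 was called, *Myd88*, beside 4.41% of all 15428 genes tested that were called downregulated and 11.6% that were called in either direction. That count is near the share called in either direction and is not read as a result about the members. All 9 had a negative log2 fold change, with a median of −0.56 beside −0.03 over all genes, although *Tlr3* (0.01) and *Tlr9* (0.0018) were positive when libraries were scaled by size alone and *Tlr3* also by limma (0.01). *Tlr8* reached the filter on low counts in 4 RC/RC mice but in 2 RC/RC:*Casp1*KO mice, and the median over the other 8 was −0.47. *Tlr6* had 5 to 22 reads per mouse in RC/RC:*Casp1*KO and was not tested.

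*Myd88* was at 11.8, 13.9, 14.8 and 15.8 CPM in RC/RC:*Casp1*KO, all under the lowest RC/RC mouse at 17.9 CPM; 9.18% of all genes tested were lower in this way. It was 1.47-fold lower than in RC/RC (log2 fold change −0.56 ± 0.14, adjusted p = 0.0345). The call was lost without RC/RC mouse 2 (log2 fold change −0.45, adjusted p = 0.0970), RC/RC mouse 3 (−0.53, 0.0944), RC/RC:*Casp1*KO mouse 1 (−0.55, 0.0838), mouse 2 (−0.59, 0.0814) or mouse 3 (−0.49, 0.0731). It held without RC/RC:*Casp1*KO mouse 4 (−0.62, adjusted p = 0.0394). Of 7 refits with other settings 2 lost the call, those with library size alone and with limma (adjusted p of up to 0.0875). The log2 fold change of *Acaa1a*, which shares bases with *Myd88*, was −0.09 ± 0.13 (adjusted p = 0.644).

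*Tlr2* was at 3.21, 4.79, 5.19 and 7.45 CPM in RC/RC:*Casp1*KO, and the highest of these, mouse 4, was above the lowest RC/RC mouse. Its log2 fold change of −0.83 ± 0.25 missed the threshold (adjusted p = 0.0584). *Tlr4* was at 3.99, 4.42, 6.02 and 7.32 CPM, all under the lowest RC/RC mouse at 7.39 CPM, with a log2 fold change of −0.66 ± 0.22 (adjusted p = 0.0763). *Tlr13* was at 1.50, 1.62, 1.66 and 4.41 CPM, so that 3 of the 4 mice were under the lowest RC/RC mouse and mouse 4 was within the RC/RC range (log2 fold change −0.86 ± 0.38, adjusted p = 0.157).

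Without RC/RC:*Casp1*KO mouse 4, 4 of the 9 members tested were downregulated, beside 4.42% of 15569 genes that were called downregulated and 9.04% called in either direction. *Tlr2* was then 2.08-fold lower than in RC/RC (adjusted p = 0.0260), *Tlr4* 1.78-fold lower (adjusted p = 0.0425), *Tlr13* 2.62-fold lower (adjusted p = 0.0200) and *Myd88* 1.54-fold lower (adjusted p = 0.0394). The comparison shares the RC/RC mice with that against WT. Leaving out this mouse was 1 of 8 such fits, and in 5 of the others no member was called.

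None of the other 5 members tested was called with loss of *Casp1*. The log2 fold changes were −0.22 ± 0.41 for *Tlr1*, −0.03 ± 0.13 for *Tlr3*, −0.38 ± 0.31 for *Tlr7*, −0.63 ± 0.55 for *Tlr8* and −0.06 ± 0.45 for *Tlr9*, with adjusted p-values of 0.428 to 0.939. With mouse 4 of the RC/RC:*Casp1*KO group left out they were −0.72 for *Tlr1* (adjusted p = 0.185), −0.11 for *Tlr3* (0.638), −0.75 for *Tlr7* (0.0706), −1.17 for *Tlr8* (0.198) and −0.61 for *Tlr9* (0.316), and none was called. RC/RC:*Casp1*KO mouse 4 had the highest *Tlr1*, *Tlr7* and *Tlr9* level of all 12 mice, at 4.59, 5.32 and 6.32 CPM. *Tlr12* was at 6.66, 8.44, 12.4 and 14.2 CPM in RC/RC:*Casp1*KO and overlapped RC/RC (log2 fold change 0.41 ± 0.26, adjusted p = 0.305; 0.31 without mouse 4, adjusted p = 0.494).

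Between RC/RC:*Casp1*KO and WT none of the 9 members tested was called by edgeR, DESeq2 or limma, beside 2.03% of all 15346 genes tested by edgeR. At an unadjusted p under 0.05 edgeR gave 1, beside 21.8% of all genes, *Tlr2*, with a log2 fold change of 0.62 ± 0.26 (adjusted p = 0.209). The values of the 9 members ranged from 0.14 ± 0.14 for *Myd88* (adjusted p = 0.556) to 1.08 ± 0.53 for *Tlr9* (adjusted p = 0.268), with a median of 0.31 beside 0.01 over all genes. *Tlr4* was at 0.27 ± 0.24 (adjusted p = 0.524) and *Tlr13* at 0.31 ± 0.43 (adjusted p = 0.695). Without RC/RC:*Casp1*KO mouse 4 the median was 0.08, no member was called, beside 0.79% of 15563 genes, and *Tlr7* (−0.09), *Tlr8* (−0.20) and *Tlr13* (−0.22) were negative. A missed threshold does not show that the levels were equal, and for *Tlr9* the estimate is a 2.11-fold difference.

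*Tlr12* remained 2.65-fold lower in RC/RC:*Casp1*KO than in WT (log2 fold change −1.40 ± 0.25, adjusted p = 0.0279), with every RC/RC:*Casp1*KO mouse under every WT mouse, as for 6.22% of all genes. That call was lost in 6 of 8 fits that left out 1 mouse, those without RC/RC:*Casp1*KO mouse 1, 2 or 4 or WT mouse 2, 3 or 4, with log2 fold changes of −1.59 to −1.23 over the 8 fits and an adjusted p of up to 0.0935. *Tlr5* was at 0.0937 to 0.400 CPM in WT and 0.554 to 0.901 CPM in RC/RC:*Casp1*KO, with no overlap, as for 7.47% of all genes that were higher. It met the filter on low counts in the RC/RC:*Casp1*KO group and in no WT mouse, so that it had to differ, and neither a fold change nor a p-value is given for it.

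The surrounding pathway was read from 9 lists with 77 genes. In RC/RC against WT 26 of the 70 tested were upregulated and 1, *Tlr12*, was downregulated, with a median log2 fold change of 0.23, beside 9.76% of all genes upregulated; over the 62 that met the filter on low counts in both groups 22 were upregulated. In RC/RC:*Casp1*KO against RC/RC 0 of 71 were upregulated and 5 were downregulated, with a median of −0.13, beside 4.41% of all genes downregulated and 11.6% called in either direction. That count is near the share over all genes and is not read as a result about the lists. Without RC/RC:*Casp1*KO mouse 4, 17 of 72 were downregulated, beside 4.42% of all genes in that fit. Over the 67 that met the filter on low counts in both groups 16 were downregulated. The number called was 10 in all without RC/RC mouse 4 and 2 without RC/RC:*Casp1*KO mouse 3. It was 1 without RC/RC mouse 2 or 3 or RC/RC:*Casp1*KO mouse 1 or 2.

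Among 10 accessory and trafficking proteins 5 were upregulated in RC/RC. *Cd14*, the coreceptor that hands lipopolysaccharide to Tlr4, was at 4.74, 5.86, 7.08 and 7.75 CPM in WT, at 14.8, 16.0, 20.7 and 21.5 CPM in RC/RC and at 5.15, 7.70, 8.25 and 12.5 CPM in RC/RC:*Casp1*KO. The RC/RC mice were above all others. *Cd14* was 2.85-fold higher in RC/RC than in WT (adjusted p = 0.00157) and 2.17-fold lower in RC/RC:*Casp1*KO than in RC/RC (adjusted p = 0.0259), a call lost without RC/RC mouse 2 or 3 or RC/RC:*Casp1*KO mouse 1 or 2, with an adjusted p of up to 0.0736. *Lbp*, the serum protein that binds lipopolysaccharide, was 3.50-fold higher in RC/RC than in WT (adjusted p = 0.00234) and 2.76-fold lower in RC/RC:*Casp1*KO than in RC/RC (adjusted p = 0.0271). The second *Lbp* call was lost without RC/RC mouse 2 or 3 or RC/RC:*Casp1*KO mouse 1, 2 or 3 (adjusted p of up to 0.0684). Without RC/RC:*Casp1*KO mouse 4 the accessory proteins called lower were 4 in place of 2: *Cd14* (2.58-fold, adjusted p = 0.0113), *Lbp* (3.32-fold, adjusted p = 0.0198), *Ly86* (2.39-fold, adjusted p = 0.0109) and *Unc93b1* (1.65-fold, adjusted p = 0.0160).

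*Cd180* and its partner *Ly86*, which form a Toll-like receptor relative on B cells and macrophages, were 2.78-fold (adjusted p = 0.0153) and 3.21-fold (adjusted p = 0.000423) higher in RC/RC than in WT; the *Cd180* call was lost without WT mouse 4 (adjusted p = 0.0507). *Unc93b1*, the chaperone that brings endosomal receptors to their compartment, was 1.81-fold higher (adjusted p = 0.00249), with WT mice at 21.9 to 27.6 CPM and RC/RC mice at 41.3 to 53.2 CPM. *Ly96*, whose product MD-2 completes the lipopolysaccharide receptor, was not called (log2 fold change −0.43 ± 0.26, adjusted p = 0.296). The chaperones *Hsp90b1* (−0.48 ± 0.17, adjusted p = 0.088) and *Cnpy3* (0.32 ± 0.15, adjusted p = 0.196) were not called either, nor were *Cd36* (−0.45 ± 0.42, adjusted p = 0.509) and *Slc15a4* (0.06 ± 0.12, adjusted p = 0.746).

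Of the other adaptors, *Tirap*, which bridges Tlr2 and Tlr4 to Myd88, and *Ticam1*, the adaptor of Tlr3, were not called in any comparison, with log2 fold changes of −0.07 ± 0.15 and −0.15 ± 0.12 in RC/RC against WT. *Pik3ap1*, a phosphoinositide 3-kinase adaptor of Toll-like receptors and the B cell receptor, was 2.46-fold higher in RC/RC (adjusted p = 0.0119). *Ticam2* and *Sarm1* were too low to be tested. The 17 kinases and ubiquitin enzymes of the list, which act downstream of Myd88 or of Ticam1, were called 0 times in each of the 3 comparisons by edgeR, with 2, 3 and 1 genes at an unadjusted p under 0.05. Their median log2 fold change was −0.07 in RC/RC against WT, with *Irak4* at 0.21 ± 0.10 (adjusted p = 0.209) and *Traf6* at 0.00 ± 0.11 (adjusted p = 0.989).

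Among 8 transcription factors of the pathway 5 were upregulated in RC/RC, led by *Relb* at 2.45-fold (adjusted p = 0.000708) and *Irf7* at 2.41-fold (adjusted p = 0.0176). The *Irf7* call was lost without RC/RC mouse 2, WT mouse 2 or WT mouse 4 (adjusted p of up to 0.0533), and that of *Irf5* without RC/RC mouse 1 or 2 or WT mouse 1 (adjusted p of up to 0.0654). In RC/RC:*Casp1*KO *Nfkb2*, an NF-κB subunit, was downregulated 1.57-fold relative to RC/RC (adjusted p = 0.0490), a call that held only without RC/RC mouse 4 or RC/RC:*Casp1*KO mouse 4 among the 8 fits that left out 1 mouse. Called lower without RC/RC:*Casp1*KO mouse 4 were 4 transcription factors in place of 1, *Nfkb1*, *Nfkb2*, *Relb* and *Irf7*, by 1.47-fold to 1.93-fold. Among 8 inhibitors 1 was upregulated in RC/RC, *Irak3*, which encodes an inactive kinase that restrains Myd88 signalling, at 2.42-fold (adjusted p = 0.0276). That call was lost without RC/RC mouse 2 or 3 or WT mouse 4 (adjusted p of up to 0.0823). Relative to RC/RC no inhibitor was called by edgeR in RC/RC:*Casp1*KO, with 4 at an unadjusted p under 0.05, and 1, *Irak3* (2.02-fold lower, adjusted p = 0.0467), was called without mouse 4.

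Of 13 target genes 9 were tested in RC/RC against WT and 7 were upregulated, with a median log2 fold change of 1.51. Of the 7, *Cxcl2*, *Ccl2* and *Ptgs2* reached the filter on low counts in 4 RC/RC mice but in 0, 2 and 1 WT mice, so that they were tested only through the RC/RC group. Over the 5 genes that met it in both groups 4 were upregulated. *Ccl2*, the monocyte chemokine, was at 0.335, 0.335, 0.515 and 0.599 CPM in WT and at 3.30, 3.69, 5.94 and 8.52 CPM in RC/RC. Since the filter favoured its direction, neither a fold change nor a p-value is given for *Ccl2* in this comparison. *Cxcl2*, a neutrophil chemokine, had 0 to 2 reads per mouse in WT and 15 to 29 in RC/RC; with no WT mouse over the filter it had to differ, and neither a fold change nor a p-value is given for it. With *Casp1* lost, 0 of the 10 tested were called by edgeR, with 4 at an unadjusted p under 0.05 and a median of −0.74, which was −0.33 over the 7 that met the filter in both groups. Without RC/RC:*Casp1*KO mouse 4 the count was 4, and 3 of the 8 that met the filter in both groups, among them *Ccl2* (3.70-fold lower, adjusted p = 0.0277); the fourth, *Cxcl2*, met it in RC/RC only. *Ifnb1* had no read in any mouse.

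The list of endogenous ligands, molecules of the body reported to act on Toll-like receptors, had 3 of 8 genes upregulated in RC/RC. The proteoglycan genes *Dcn* and *Bgn* are also products of fibroblasts. *Dcn* was at 27.1, 29.1, 33.6 and 34.8 CPM in WT, at 132, 139, 157 and 264 CPM in RC/RC and at 51.5, 61.1, 64.9 and 73.8 CPM in RC/RC:*Casp1*KO. The groups did not overlap in any pair. *Dcn* was 5.54-fold higher in RC/RC than in WT (adjusted p = 0.000394), 2.76-fold lower in RC/RC:*Casp1*KO than in RC/RC (adjusted p = 0.00880) and 2.03-fold higher in RC/RC:*Casp1*KO than in WT (adjusted p = 0.00799), and each of these calls held in 8 of 8 fits that left out 1 mouse. *Bgn* was 3.01-fold higher in RC/RC than in WT (adjusted p = 0.0126), which also held in 8 of 8 fits. *Tnc*, the gene of the matrix protein tenascin-C, was 3.44-fold higher (adjusted p = 0.0418) and lost its call in 6 of 8 such fits, those without RC/RC mouse 1, 2 or 3 or WT mouse 1, 2 or 4 (adjusted p of up to 0.112). *Bgn* was 2.46-fold lower in RC/RC:*Casp1*KO than in RC/RC (adjusted p = 0.0420), a call lost in 5 of 8 fits, those without RC/RC mouse 2 or 3 or RC/RC:*Casp1*KO mouse 1, 2 or 3 (adjusted p of up to 0.101).

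The interleukin-1 family receptors use Myd88 as the Toll-like receptors do, and 4 of 5 were upregulated in RC/RC. Over the 4 that met the filter on low counts in both groups 3 were upregulated. *Il18r1*, a subunit of the interleukin-18 receptor, was 5.25-fold higher in RC/RC than in WT (adjusted p = 0.00851). *Il1rl1*, the interleukin-33 receptor, was at 0.383 to 0.796 CPM in WT and at 1.78 to 2.89 CPM in RC/RC. *Il1rl1* met the filter on low counts in 4 RC/RC mice but in 3 of 4 WT mice. Neither a fold change nor a p-value is given for it in this comparison. The call of *Il18rap* was lost in 6 of 8 fits that left out 1 mouse, those without RC/RC mouse 1 or 2 or any WT mouse (adjusted p of up to 0.0884). With *Casp1* lost, 0 of the 5 were called by edgeR, with 2 at an unadjusted p under 0.05 and a median log2 fold change of −0.32. Without RC/RC:*Casp1*KO mouse 4, 2 were called lower, *Il1r1* (1.69-fold, adjusted p = 0.0485) and *Il1rl1* (2.50-fold, adjusted p = 0.0466), and the median was −0.76. *Il18r1* was 5.47-fold higher in RC/RC:*Casp1*KO than in WT (adjusted p = 0.0235), a call lost without RC/RC:*Casp1*KO mouse 2 or WT mouse 1, 2 or 4 (adjusted p of up to 0.0733).

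**Figure D4:**
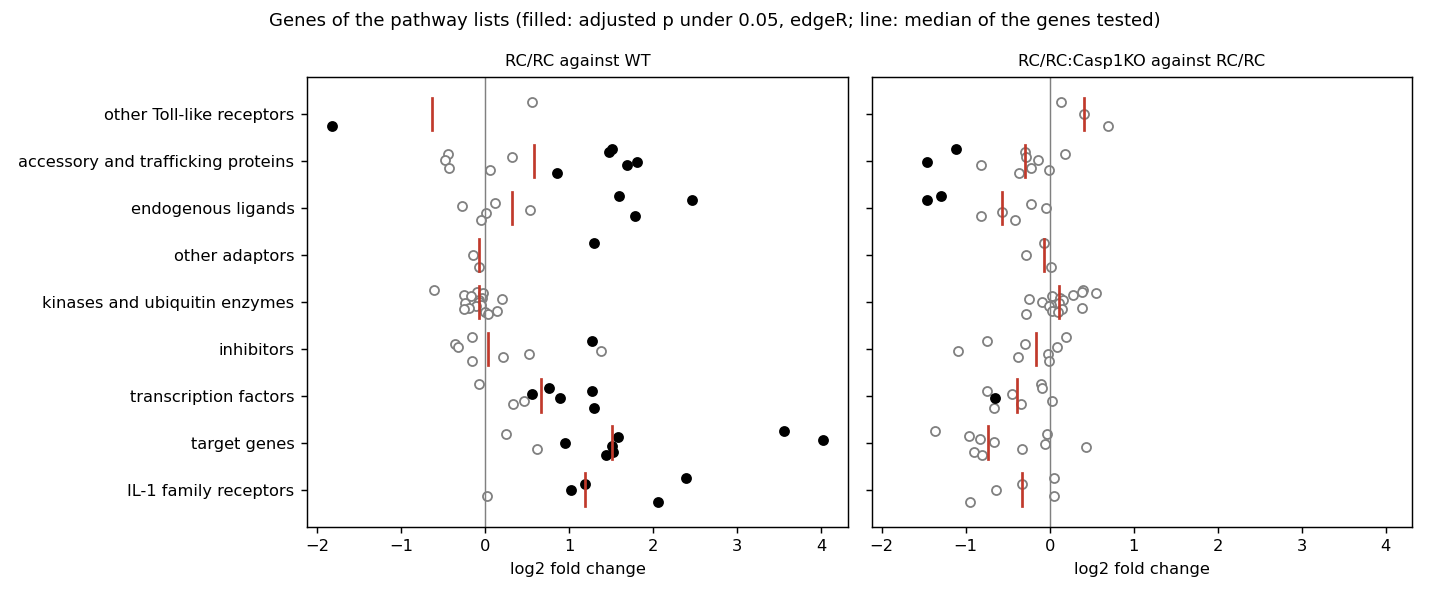
Log2 fold change (horizontal axis) of every tested gene of the 9 pathway lists in RC/RC against WT and in RC/RC:*Casp1*KO against RC/RC; filled points passed an adjusted p of 0.05 and red lines are medians of the genes tested. Target genes have a median of 1.51 on the left and −0.74 on the right, and no kinase is filled in either panel. Over the 7 target genes that met the filter on low counts in both groups the median on the right is −0.33.

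Leukocyte and fibroblast markers were, like the members, mostly higher in RC/RC than in WT. In RC/RC against WT 9 of 10 macrophage genes, 4 of 6 dendritic cell genes, 4 of 4 T cell genes and *Ptprc* (1.82-fold, adjusted p = 0.00779) were upregulated. The summed macrophage markers were 145, 147, 152 and 178 CPM in the WT mice, 324, 347, 377 and 459 CPM in the RC/RC mice and 174, 227, 241 and 387 CPM in RC/RC:*Casp1*KO. RC/RC mice did not overlap WT mice, and RC/RC:*Casp1*KO mouse 4 was the highest of its group. *Csf1r*, the macrophage growth factor receptor and the most abundant gene of that list, was the gene that was not called (log2 fold change 0.50 ± 0.17, adjusted p = 0.0828). Over the genes that met the filter on low counts in both groups the counts were 3 of 5 for dendritic cells and 1 of 1 for T cells. In whole-kidney RNA, a larger number of such cells and more RNA per cell cannot be told apart, and the part of either in the levels of the members was not tested.

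Each of the 9 macrophage calls and that of *Ptprc* held in 8 of 8 fits that left out 1 mouse, whereas all 4 dendritic cell calls, those of *Ms4a1* and *Cd79b* among B cell genes and that of *Cd3g* among T cell genes were each lost in at least 3 of 8. The most abundant gene was *Zbtb46* among the dendritic cell markers, *Cd79a* among the B cell markers and *Cd3e* among the T cell markers. Fibroblast and pericyte markers, led by *Col3a1*, were upregulated in 4 of 4 genes, of which *Pdgfra* lost its call in 4 of 8 such fits, and their sum lay between 131 and 194 CPM in WT mice and between 469 and 1157 CPM in RC/RC mice. None of 5 endothelial genes, led by *Kdr*, was called by edgeR, with 2 at an unadjusted p under 0.05. The proximal tubule markers had 2 of 5 downregulated, the loop, distal tubule and collecting duct 1 of 4, and the podocyte markers, led by *Podxl*, 1 of 3; of these 4 calls that of *Slc12a3* held in 8 of 8 such fits. Of 5 neutrophil markers 2 could be tested, *Mmp9* and *Csf3r*, the most abundant. Both met the filter on low counts in 4 of 4 RC/RC mice and 3 of 4 WT mice, so that no call is given for them in this comparison. *Mmp9* was at 0.375 to 0.899 CPM in WT and at 1.74 to 2.37 CPM in RC/RC. The summed neutrophil markers were 1.20 to 4.00 CPM in WT mice and 5.33 to 7.88 CPM in RC/RC mice, without overlap, and *Ly6g* had 0 to 3 reads per mouse.

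Relative to RC/RC, 2 of 10 macrophage genes, *C1qa* (2.33-fold lower, adjusted p = 0.0492) and *C1qb* (2.13-fold lower, adjusted p = 0.0465), were downregulated in RC/RC:*Casp1*KO, and the count was 8 of 10 without RC/RC:*Casp1*KO mouse 4. Both calls were lost in each of the other 7 fits that left out 1 mouse, with an adjusted p of up to 0.125 and 0.119. Of 4 fibroblast and pericyte genes 2 were lower, *Col1a1* (3.65-fold, adjusted p = 0.0367) and *Col3a1* (3.17-fold, adjusted p = 0.0335), with a median log2 fold change of −1.19 over the list, and 3 were called without mouse 4; these 2 calls were lost without RC/RC mouse 2 or 3 or RC/RC:*Casp1*KO mouse 1, 2 or 3 (adjusted p of up to 0.0987). Of 5 proximal tubule genes 2 were higher, *Lrp2* (2.86-fold, adjusted p = 0.0144) and *Cubn* (2.53-fold, adjusted p = 0.0146), with a median of 0.94, and both held in 8 of 8 fits. *Mmp9* (2.11-fold lower, adjusted p = 0.0409), *Cd79b* (1.94-fold lower, adjusted p = 0.0456) and *Slc12a3* (2.71-fold higher, adjusted p = 0.0454) were also called, and each of these 3 calls was lost in 6 of 8 fits, including, for all 3, those without RC/RC mouse 2 or 3 or RC/RC:*Casp1*KO mouse 1 or 2. With all mice 0 of 6 dendritic cell genes were called, 3 with a positive and 3 with a negative log2 fold change. Of 4 T cell genes 0 were called, with a median of −0.92. *Csf1r* had a mean of 111 CPM in RC/RC:*Casp1*KO and 100 CPM in RC/RC. The part of these cell types in the levels of the members was not tested. *Ptprc* had a log2 fold change of 0.10 ± 0.35 (adjusted p = 0.867) with all mice and −0.40 without mouse 4 (adjusted p = 0.222).

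The reads of a member can also be set against those of *Ptprc* in the same mouse, a description chosen after the data had been seen and given without a test. *Tlr13* had 7.72 to 17.1 reads per 100 *Ptprc* reads in WT, 11.97 to 19.5 in RC/RC and 6.29 to 9.81 in RC/RC:*Casp1*KO. On this ratio the RC/RC:*Casp1*KO mice were all below the RC/RC mice, with mouse 4 at 7.57. Mouse 4 also had the highest *Ptprc* level of all mice, 58.3 CPM, which lowers its ratio. No other member separated these groups on this ratio, and the share of all genes that do so was not computed. *Tlr2* had 17.1 to 28.8 reads per 100 *Ptprc* reads in WT, 25.6 to 45.5 in RC/RC and 12.8 to 31.5 in RC/RC:*Casp1*KO, and *Tlr4* had 22.6 to 32.9, 26.6 to 33.1 and 12.6 to 26.9. *Myd88* had 67.4 to 110 reads per 100 *Ptprc* reads in WT, 52.5 to 96.2 in RC/RC and 27.1 to 84.1 in RC/RC:*Casp1*KO, with a lower mean in RC/RC (74.3) than in WT (82.8). *Tlr7* likewise had a mean of 16.6 in WT and 14.4 in RC/RC, and both genes overlapped between these groups. *Tlr3* had 69.5 to 87.9 in WT and 44.8 to 56.8 in RC/RC, lower without overlap. *Ptprc* itself was higher in RC/RC than in WT (log2 fold change 0.87), which lowers the ratio of any gene that rose less. The level of *Tlr3* was not lower in RC/RC, so that its ratio does not show a fall of *Tlr3*. The share of all genes with a lower ratio in RC/RC is not given.

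**Figure D5:**
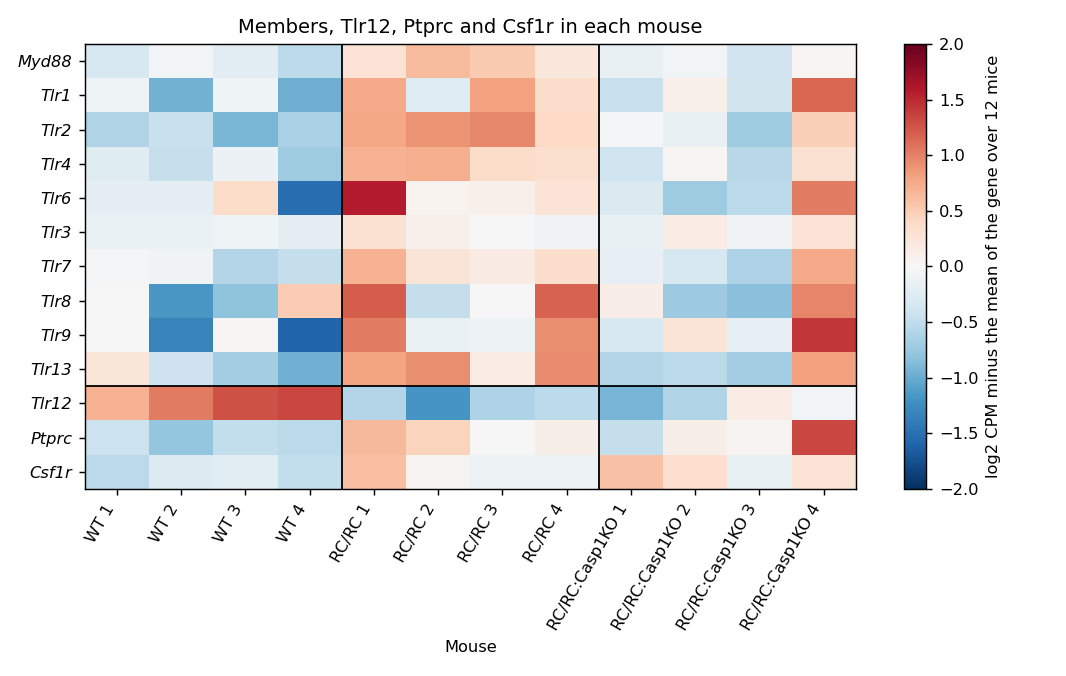
Log2 CPM of the 10 members, *Tlr12*, *Ptprc* and *Csf1r* in each of the 12 mice, each gene centred on its own mean (colour scale, log2). *Tlr2* lies between −0.91 and −0.45 in WT and between 0.40 and 0.96 in RC/RC, *Tlr12* is reversed, and *Ptprc* reaches 1.34 in RC/RC:*Casp1*KO mouse 4.

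The genes whose pattern over the 12 mice was nearest to a member were found by the root mean square difference of centred log2 CPM among 14879 genes. For *Myd88* they were *Tbc1d2b*, *Elk3* and *Ifngr2*, at 0.12, 0.12 and 0.13, beside a median of 0.45 over all genes. For *Tlr2* they were *Cmtm3*, 5430435G22Rik and *Rasa3*, at 0.18, 0.18 and 0.19 beside a median of 0.71. For *Tlr7* they were *Lilra5*, *Naaa* and *Ctsc*, at 0.16, 0.16 and 0.18 beside a median of 0.53.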

How the data were processed

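RNA of 12 mouse kidneys was sequenced and counted by a sequencing company for the authors. The submitters' processing notes name CASAVA 1.8, STAR and mm10; the counting tool, the annotation release and the strand setting are not given in the sources used here. The deposited table holds read counts per gene, which the authors did not normalise, with gene positions and lengths. Its FPKM, fold change and p-value columns, the latter from the authors' own comparisons, were not used. FPKM was computed here as counts per length and library total.

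Genes kept by edgeR's filterByExpr were tested in 3 pairwise comparisons of 8 mice each with edgeR 4.0.16 (R 4.3.3; TMM, quasi-likelihood test, Benjamini-Hochberg adjustment over all genes tested, 0.05), without covariates. Standard errors were derived from the fold change and the F statistic of each gene (the estimate over root F). The fits were tested on simulated data. Replicates are separate animals, and no pair of libraries of a group agreed within sampling noise (chi-square per gene 15.7 to 128 over 18 pairs). Mice 1 and 2, and mice 3 and 4, were more alike in WT (17.7 and 16.4, other pairs 89.8 to 127). The same held in RC/RC:*Casp1*KO (15.7 and 31.8, other pairs 67.1 to 93.4). In RC/RC the lowest value was 37.2, for mice 3 and 4, and mice 1 and 2 had 69.7. The cause was not tested, and the columns do not name the sex. Alternatives were DESeq2 1.42.0, limma 3.58.1 on log2(FPKM + 1), RLE and library size scaling, other count filters (at least 1 count; 10 counts in every mouse), a dispersion shared by 12 mice, and leaving out each mouse. *Adgre1* was listed under its older symbol. Transcripts were compared with blastn 2.17.0.

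The members and gene lists were chosen with earlier results of these data known. Named are the members, *Casp1* and *Pkd1*, the other receptors, accessory proteins and adaptors, in each other pathway list up to 2 called genes with the largest rise and fall per comparison, the most abundant marker of each list, and the 3 nearest genes of *Myd88*, *Tlr2* and *Tlr7*; *Irak4*, *Traf6*, *Ly6g*, *C1qa*, *C1qb*, *Ifnb1*, the overlapping genes *Acaa1a* and *Slc22a14*, *Nfkb1*, *Irf5*, *Ptgs2*, *Il1r1*, *Il18rap* and the further marker genes were added after their values were seen. The count of B cell markers is not reported here.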

Additional observations from a re-analysis of the deposited data

Results flagged for a closer look

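In groups of 4 mice the highest or lowest value was compared with the rest by Dixon's gap test at the 95% level, for the 10 members, *Tlr5*, *Tlr11* and *Tlr12* and the summed markers of 11 lists. Of 72 such groups 7 had a mouse that stood apart, and chance flags about 1 in 20. *Tlr6* was at 1.51 CPM in the highest RC/RC mouse against 0.558 CPM in the next, and at 1.00 CPM in the highest RC/RC:*Casp1*KO mouse against 0.346 CPM in the next. *Tlr13* was at 4.41 CPM and *Tlr11* at 2.54 CPM in the highest RC/RC:*Casp1*KO mouse, against 1.66 and 1.11 CPM in the next, and in these 3 RC/RC:*Casp1*KO cases the mouse was number 4. *Tlr12* was at 5.63 CPM in the lowest RC/RC mouse against 8.31 CPM in the next. The summed neutrophil markers reached 7.88 CPM in the highest RC/RC mouse against 5.62 CPM in the next, and those of the loop, distal tubule and collecting duct 5895 CPM against 4260 CPM. The causes were not tested.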

How the results depend on the processing

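Over the 28 pairs of a member and a comparison, 416 refits were made: 383 kept the direction and the side of the threshold, 14 lost a call, 6 gained one and 13 turned the sign. *Tlr2*, *Tlr4* and *Myd88* remained called in RC/RC against WT in every refit, and no member was called in RC/RC:*Casp1*KO against WT in any. Between the RC/RC:*Casp1*KO and RC/RC mice the count of members called, 1 of 9, was 0 with library size alone and with limma, 2 with a dispersion shared by all 12 mice and 3 with DESeq2. The pathway list count in that comparison, 5, was 1 with library size alone, 2 with limma, 10 with the shared dispersion and 14 with DESeq2, and the count over all genes, 1797, was 993 with library size alone, 1041 with limma and 3172 with DESeq2. In RC/RC:*Casp1*KO against WT the pathway list count, 3, was 5 with all genes of at least 1 count, 6 with the shared dispersion and 15 with DESeq2, and the count over all genes, 311, was 167 with at least 10 counts in every mouse and 1397 with DESeq2. In RC/RC against WT DESeq2 called 2996 genes in place of 1971. *Tlr13* lost its call there with the shared dispersion (adjusted p = 0.0607).

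Leaving out 1 mouse gave 1162 to 2440 genes in RC/RC against WT, 438 to 2789 when RC/RC:*Casp1*KO was set against RC/RC, and 108 to 547 when it was set against WT. Members called were 3 to 4, 0 to 4 and 0 to 0, and pathway list genes 21 to 29, 1 to 17 and 1 to 5. Relative to RC/RC, the log2 fold change after loss of *Casp1* was 0.014 with library size alone and 0.010 with limma for *Tlr3*, and 0.0018 with library size alone for *Tlr9*. Leaving out 1 mouse, it ran from −0.11 to 0.036 for *Tlr3* and from −0.61 to 0.14 for *Tlr9*. Against WT it ran from −0.087 to 0.46 for *Tlr7*, from −0.20 to 0.76 for *Tlr8* and from −0.22 to 0.61 for *Tlr13*. The causes were not tested.

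No paired analysis was possible because the columns of the count table carry no replicate number. Depth limits the scarce members: *Tlr6* had 2 to 39 reads per mouse and *Tlr8* 6 to 49.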
